A study of Mus musculus with 8 samples.

Results

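Red blood cell genes were followed in embryonic mouse hearts through 9 named genes: the alpha-like globins Hba-x, Hba-a1 and Hba-a2, the beta-like globins Hbb-y, Hbb-bh1, Hbb-bs and Hbb-bt, the haem synthesis gene Alas2 and the anion exchanger gene Slc4a1. They were chosen by symbol and matched through Entrez gene IDs to the counts of 27179 genes. Of the 9, 8 had a row, and all 8 passed the filter on low counts that kept 15086 genes. Hbb-bt was not analysed here. The study sequenced total RNA of 8 hearts collected at E10.5 (mid-gestation), 5 labelled Kat6a+/+ (Kat6a WT) and 3 labelled Kat6a-/- (Kat6a KO), with no treatment. Blood stem cells need Kat6a (MOZ), the product of which acetylates histones. No source used here names the strain, the litters or the kind of Kat6a mutation. Nothing says that hearts came from separate litters, so p-values measure only the spread between these samples.

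The first red cells of the mouse embryo arise in the yolk sac, enter the circulation while still nucleated and carry mainly embryonic globins. Haemoglobin is built from alpha-like and beta-like chains, and as these primitive cells mature the embryonic chains give way to later ones: Hba-x (zeta) to the adult alpha chains, and Hbb-bh1 to Hbb-y. Adult beta globin is mainly a product of definitive red cells, which come later and mature in the fetal liver. A heart taken whole holds blood in its chambers and vessels, so its RNA includes that of circulating cells.

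Promoter sequence of the genes is shown as a description. Whether it bears on how their levels differed between hearts was not tested. RefSeq promoter entries of GRCm38.p6 were matched for Hba-x, Hba-a1, Hba-a2, Hbb-y, Hbb-bs and Alas2, and none for Hbb-bh1 and Slc4a1. The last 120 bases before the annotated start are printed 5′ to 3′ on the strand of the gene. They lie at chr11:32276480-32276599 (plus strand) for Hba-x, chr11:32283552-32283671 (plus) for Hba-a1, chr7:103853208-103853327 (minus) for Hbb-y, chr7:103827929-103828048 (minus) for Hbb-bs and chrX:150547297-150547416 (plus) for Alas2. Capitals mark matches to the words searched.
Hba-x: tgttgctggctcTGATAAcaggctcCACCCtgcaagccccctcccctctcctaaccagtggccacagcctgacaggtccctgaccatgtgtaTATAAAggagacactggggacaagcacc
Hba-a1: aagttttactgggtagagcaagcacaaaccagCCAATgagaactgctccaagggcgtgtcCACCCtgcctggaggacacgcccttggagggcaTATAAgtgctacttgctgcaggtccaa
Hbb-y: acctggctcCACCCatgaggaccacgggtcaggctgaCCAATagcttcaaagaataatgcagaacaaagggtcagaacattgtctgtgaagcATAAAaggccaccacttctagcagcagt
Hbb-bs: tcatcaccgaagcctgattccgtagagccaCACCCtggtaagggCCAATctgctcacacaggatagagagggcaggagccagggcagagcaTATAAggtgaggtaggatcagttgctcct
Alas2: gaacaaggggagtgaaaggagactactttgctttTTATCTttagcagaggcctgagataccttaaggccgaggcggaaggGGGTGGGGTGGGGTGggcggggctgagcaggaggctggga
The words were the GATA words AGATAA and also AGATAG with their counterparts TGATAA and also TGATAG, the CACCC word and likewise the CCAAT word, each on both strands, and the words TATAA or else ATAAA on the strand of the gene only. In Hba-x the words TATAA and ATAAA overlap. In the same 120-base window of 32851 RefSeq promoters, 12.8% held a GATA word, 31.7% a CACCC word, 21.3% a CCAAT word and 16.2% a TATA word. All 6 matched genes held a CACCC word, 3 times in Alas2. A CCAAT word stood in Hba-a1, Hba-a2, Hbb-y and Hbb-bs, a TATA word in all 5 matched globins, and a GATA word in Hba-x and Alas2. In the 250 bases before the start, all 6 held a GATA word, against 26.5% of the 32851 promoters. Alas2 also held a TATA word there, against 29.9%. Hba-a1 and Hba-a2 share their promoter: at an offset of 3 bases, 247 of 247 compared positions were identical. A match is a description of the letters and was not tested as a binding site.

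The libraries held 19911803 to 34539787 counts. Kat6a itself stood at 145 ± 6.91 CPM (counts scaled to library size, SD, n = 5) in the hearts labelled WT and 137 ± 3.80 CPM (SD, n = 3) in those labelled KO, with edgeR's quasi-likelihood adjusted p = 0.529. Whole-gene counts do not check a mutation that leaves the transcript, and the groups are taken from the labels throughout. Of 15086 genes, edgeR called 217 higher and 186 lower in KO. Heart muscle markers identified the tissue, with summed levels of 38383 to 41515 CPM in WT and 41980 to 45080 CPM in KO, and 3 of 14 rose in KO. WT hearts 4 and 5 had Xist RNA above 10 CPM and the other 6 hearts, all KO hearts included, did not. The labels number the KO samples ahead of the WT samples, so genotype and any order of handling cannot be told apart.

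The amount of red cell RNA differed about 4-fold between single hearts and did not separate the genotypes. The 6 globins together took 0.383%, 0.386%, 0.917%, 1.58% and 0.845% of all counts in WT hearts 1 to 5 and 0.533%, 0.894% and 0.686% in KO hearts 1 to 3. WT heart 4 held most and WT hearts 1 and 2 least, with the 3 KO hearts lying inside the WT range. Wilson 95% intervals around these shares, which cover counting error only, were far narrower than the gaps between most hearts: 0.381% to 0.385% in WT heart 1 and 1.57% to 1.58% in WT heart 4. Scaled by gene length as well as library size (TPM), globin RNA averaged 32691 ± 19151 TPM (SD, n = 5) in WT and 28140 ± 7378 TPM (SD, n = 3) in KO. On the log2 scale KO minus WT was -0.05, against a pooled SD of 0.74. Leaving out 1 heart moved this difference between -0.27 and 0.24, the latter without WT heart 4, and it was 0.42 without WT hearts 4 and 5. In whole hearts, fewer red cells and less RNA per red cell cannot be told apart.

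Among the alpha-like globins, Hba-x, the embryonic zeta chain (Entrez 15126, chr11:32276600-32278116), stood at 938, 992, 2303, 4141 and 2194 CPM in WT hearts 1 to 5 and at 1384, 2316 and 1658 CPM in KO hearts 1 to 3. The KO hearts lay within the WT range, and the log2 fold change of KO over WT was -0.24 ± 0.55 (SE), adjusted p = 0.909 by edgeR. Hba-a1 (Entrez 15122, chr11:32283672-32284486), an adult alpha chain, stood at 304, 307, 696, 1209 and 621 CPM in WT and 455, 669 and 541 CPM in KO. Hba-a2 (Entrez 110257, chr11:32296492-32297310), its near copy, stood at 354, 366, 840, 1438 and 750 CPM in WT and 508, 801 and 646 CPM in KO. Both followed the order of hearts seen for the other globins, low in WT hearts 1 and 2 and high in WT heart 4, with overlapping groups. Their log2 fold changes were -0.18 ± 0.51 (SE, adjusted p = 0.928, edgeR) for Hba-a1 and -0.20 ± 0.52 (SE, adjusted p = 0.918, edgeR) for Hba-a2. The coding sequences of these 2 genes are identical at 428 of 429 bases, and 67.5% of the 50-base windows of the Hba-a1 transcript also occur in Hba-a2. Their separate counts are therefore uncertain, and their sum is the firmer value. Hba-x shares no such window with either.

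Among the beta-like globins, Hbb-y, the embryonic epsilon-y chain (Entrez 15135, chr7:103851754-103853207), stood at 1552, 1565, 3749, 6397 and 3401 CPM in WT and 2161, 3747 and 2842 CPM in KO. Hbb-bh1, the earlier embryonic chain (Entrez 15132, chr7:103841638-103843162), stood at 678, 613, 1582, 2492 and 1449 CPM in WT and 834, 1498 and 1110 CPM in KO. For both embryonic chains WT heart 4 was highest, WT hearts 1 and 2 were lowest and the groups overlapped. The log2 fold changes were -0.19 ± 0.54 (SE, adjusted p = 0.925, edgeR) for Hbb-y and -0.25 ± 0.53 (SE, adjusted p = 0.901, edgeR) for Hbb-bh1. The adult chain Hbb-bs (Entrez 100503605, chr7:103826523-103827928) stood at 4.80, 6.08, 11.4, 25.6 and 10.9 CPM in WT and 12.0, 16.1 and 17.3 CPM in KO. Its order of hearts was different: after WT heart 4 came all 3 KO hearts, above the other 4 WT hearts. The groups still overlapped through WT heart 4, and the log2 fold change was 0.36 ± 0.56 (SE, adjusted p = 0.851, edgeR). This value depended on single hearts: it was 0.16 without WT heart 1, 0.21 without WT heart 2 and 0.85 without WT heart 4. Without WT hearts 4 and 5, those with Xist RNA, it was 1.00 (unadjusted p = 0.0390, adjusted p = 0.353, edgeR).

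The genes that serve haemoglobin and the membrane behaved like the embryonic globins. Alas2, the red cell form of the first enzyme of haem synthesis (Entrez 11656, chrX:150547417-150570622), stood at 48.2, 56.5, 113, 201 and 99.8 CPM in WT and 72.8, 118 and 86.8 CPM in KO. Slc4a1, the band 3 anion exchanger of the red cell membrane (Entrez 20533, chr11:102348820-102365281), stood at 111, 140, 327, 609 and 309 CPM in WT and 169, 325 and 222 CPM in KO. In both, WT heart 4 was highest, WT hearts 1 and 2 were lowest and all KO hearts lay within the WT range. Log2 fold changes were -0.17 ± 0.51 (SE, adjusted p = 0.933, edgeR) for Alas2 and -0.33 ± 0.61 (SE, adjusted p = 0.884, edgeR) for Slc4a1. Alas2 overlaps Apex2 and Mir3620, and the strand setting of the counting is not given, so reads of these genes could mix.

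By edgeR's quasi-likelihood test, 0 of the 8 genes passed an adjusted p of 0.05, against 2.67% of all genes tested. At an unadjusted p of 0.05 the count was also 0, as it was with DESeq2 and with limma voom. Groups overlapped for all 8, while 9.59% of all genes tested had KO and WT hearts that did not overlap, 4.77% with KO above and 4.81% with KO below. Hbb-bs had a fold change above 0 and the other 7 below, with a median of -0.20 on the log2 scale against -0.00 for all genes. The negative sign of the other 7 rested on WT heart 4: without it their log2 fold changes lay between 0.09 for Hbb-bh1 and 0.21 for Alas2. The test recovered 96% of simulated 2-fold changes over genes of this data set, whose common biological coefficient of variation was 9.10%. That recovery is for genes drawn at random and does not carry over to the 8 red cell genes. Their log2 CPM had SDs of 0.65 to 0.80 over the 8 hearts, and their log2 fold changes had SEs of 0.51 to 0.61.

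**Figure D1:**
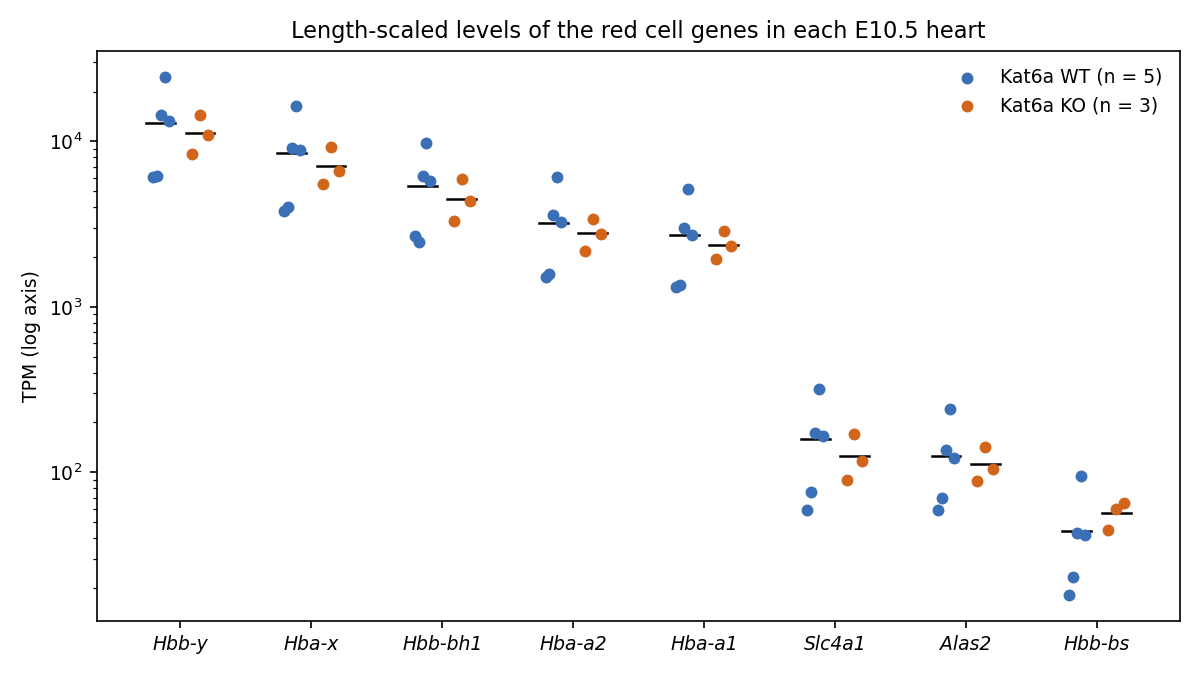
Level of each gene in each heart in TPM on a log axis, with WT hearts (n = 5) in blue, KO hearts (n = 3) in orange and a black line at each group mean. The order of genes is shared by both groups, and the KO points lie inside the span of the WT points for every gene.

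Per length, the embryonic globins led in every heart. Hbb-y was the most abundant, with 12935 ± 7605 TPM (SD, n = 5) in WT and 11294 ± 3080 TPM (SD, n = 3) in KO. Hba-x followed with 8448 ± 5127 TPM (SD, n = 5) and 7125 ± 1911 TPM (SD, n = 3), then Hbb-bh1 with 5368 ± 2977 TPM (SD, n = 5) and 4510 ± 1310 TPM (SD, n = 3). From Hbb-y through Hba-x, Hbb-bh1 and Hba-a2 to Hba-a1 the ranges of neighbouring genes overlapped between hearts, yet the order within a heart was the same in all 8. Hba-a2 averaged 3198 TPM in WT and 2775 TPM in KO, and Hba-a1 averaged 2698 TPM and 2379 TPM. Slc4a1 averaged 158 TPM in WT and 126 TPM in KO, and Alas2 126 TPM and 112 TPM. Slc4a1 was above Alas2 in 7 hearts and below it in WT heart 1. Hbb-bs was lowest in all 8, at 44.2 ± 30.5 TPM (SD, n = 5) in WT and 56.7 ± 10.4 TPM (SD, n = 3) in KO.

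Within a heart the proportions of the globins were far steadier than their levels. Of all globin RNA per length, Hbb-y made up 39.5% ± 0.178 (SD, n = 5) in WT and 40.1% ± 0.714 (SD, n = 3) in KO. Hba-x made up 25.6% ± 0.759 (SD, n = 5) and 25.3% ± 0.812 (SD, n = 3), and Hbb-bh1 16.6% ± 0.821 (SD, n = 5) and 15.9% ± 0.509 (SD, n = 3). The group means of these 3 embryonic chains differed by no more than 1 SD of the more variable group. Against the less variable group, the difference exceeded the WT SD for Hbb-y and the KO SD for Hbb-bh1. Hba-a2 held 9.83% in WT and 9.92% in KO, and Hba-a1 8.32% and 8.56%. Hbb-bs was the exception, with 0.132% ± 0.0176 (SD, n = 5) in WT and 0.206% ± 0.0362 (SD, n = 3) in KO. Highest over lowest heart, the CPM of the embryonic globins differed 4.06-fold to 4.41-fold, while their shares differed 1.03-fold for Hbb-y, 1.08-fold for Hba-x and 1.14-fold for Hbb-bh1.

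Ratios of counts per kilobase within each heart carry no library scaling and were compared by a two-sided exact permutation test over 56 assignments of hearts, for 6 ratios. Embryonic over adult beta globin was taken as Hbb-y plus Hbb-bh1 over Hbb-bs, which leaves out the more abundant adult-type row Hbb-b1 described below. It was 482, 372, 483, 360 and 460 in WT hearts 1 to 5 and 259, 339 and 237 in KO hearts 1 to 3. All 3 KO hearts lay below all 5 WT hearts, although KO heart 2 came within a short distance of WT heart 4. The KO ratio was 0.643-fold that of WT, a log2 difference of -0.64 between group means of 8.10 ± 0.27 (SD, n = 3) and 8.74 ± 0.21 (SD, n = 5). Its exact p was 0.0179, the smallest this design allows, and 0.107 after Benjamini-Hochberg adjustment over the 6 ratios, which does not pass 0.05. A single ratio at the smallest p cannot pass that adjustment. Leaving out 1 heart gave log2 differences of -0.79 to -0.53, and without WT heart 2 another assignment of hearts was as extreme (exact p = 0.0571).

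For the other 5 ratios the groups overlapped. Hbb-y over Hbb-bh1, which follows the switch between the embryonic beta chains, was 2.26 to 2.53 in WT and 2.46 to 2.55 in KO, a log2 difference of 0.07 (exact p = 0.161, adjusted 0.482). Embryonic over adult alpha globin, Hba-x over Hba-a1 plus Hba-a2, was 1.33 to 1.49 in WT and 1.30 to 1.47 in KO, a log2 difference of -0.04 (exact p = 0.464, adjusted 0.75). Alpha-like over beta-like globin RNA was 0.754 to 0.804 in WT and 0.757 to 0.824 in KO (exact p = 0.857, adjusted 0.857), so chains of both kinds stood in the same balance within the spread of hearts. Alas2 over globins had a log2 difference of 0.04 (exact p = 0.696, adjusted 0.836), and Slc4a1 over globins one of -0.08 (exact p = 0.5, adjusted 0.75).

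**Figure D2:**
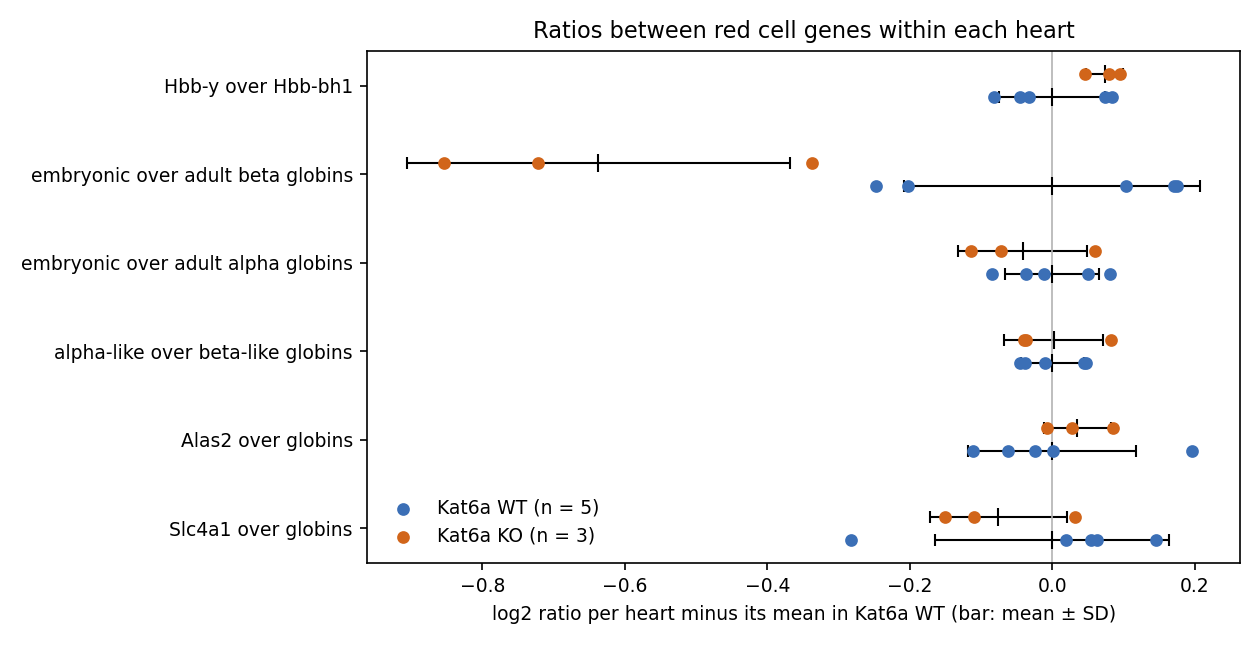
Each of 6 within-heart ratios on the log2 scale, minus its mean in WT hearts, with 1 point per heart (WT blue, n = 5; KO orange, n = 3) and bars of mean ± SD. The KO points of embryonic over adult beta globin lie left of every WT point, with a mean of -0.64, while the groups overlap for the other 5 ratios.

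Hbb-bs set against Hbb-y shows the same difference gene by gene. Per length, Hbb-bs reached 0.300%, 0.376%, 0.296%, 0.387% and 0.312% of Hbb-y in WT hearts 1 to 5 and 0.537%, 0.415% and 0.590% in KO hearts 1 to 3. The KO hearts were all above the WT hearts, KO hearts 1 and 3 clearly so and KO heart 2 by little. The means were 0.334% ± 0.0440 (SD, n = 5) and 0.514% ± 0.0896 (SD, n = 3), or 1.53-fold. Hbb-bs rested on 127 to 588 counts per heart, with a counting error of at most 8.87%. The separation of the groups rests on KO heart 2, at 0.415% with a counting error of 5.63%, against WT heart 4, at 0.387% with 4.12%, and WT heart 2, at 0.376% with 8.87%. These distances are about the size of the counting errors, so counting alone could reorder these 3 hearts.

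Another row of the table, Hbb-b1 (Entrez 15129), a beta globin of the adult type that is not among the 9 genes, was set beside Hbb-bs after its values were seen. It stood at 27.9, 54.0, 103, 217 and 94.2 CPM in WT and 141, 170 and 170 CPM in KO. It ordered the 8 hearts exactly as Hbb-bs did, WT heart 4 first and then the 3 KO hearts. The size of the difference was not the same. Per length, Hbb-b1 was 592% to 919% of Hbb-bs in WT and 1002% to 1203% in KO, or 1.33-fold, without overlap. The cause was not tested. Per length it reached 1.78% to 3.41% of Hbb-y in WT and 4.48% to 6.46% in KO, with means of 2.80% ± 0.662 (SD, n = 5) and 5.62% ± 1.02 (SD, n = 3), or 2.03-fold. With Hbb-b1 in place of Hbb-bs, the ratio of embryonic to adult beta globin had a log2 difference of -1.05 (exact p = 0.0179, adjusted 0.107). Hbb-bs and Hbb-bt are identical at 443 of 444 coding bases, and no source used here gives where the authors' annotation placed Hbb-b1 relative to them. The RefSeq table lists Hbb-b1 under chromosome 7 with a start of 38285 and an end of 39684, far from Hbb-bs, and does not say from which sequence these are counted. The counts of Hbb-bs and Hbb-b1 are therefore uncertain one by one and may share reads. Neither embryonic beta chain shares a 50-base window with Hbb-bs.

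**Figure D3:**
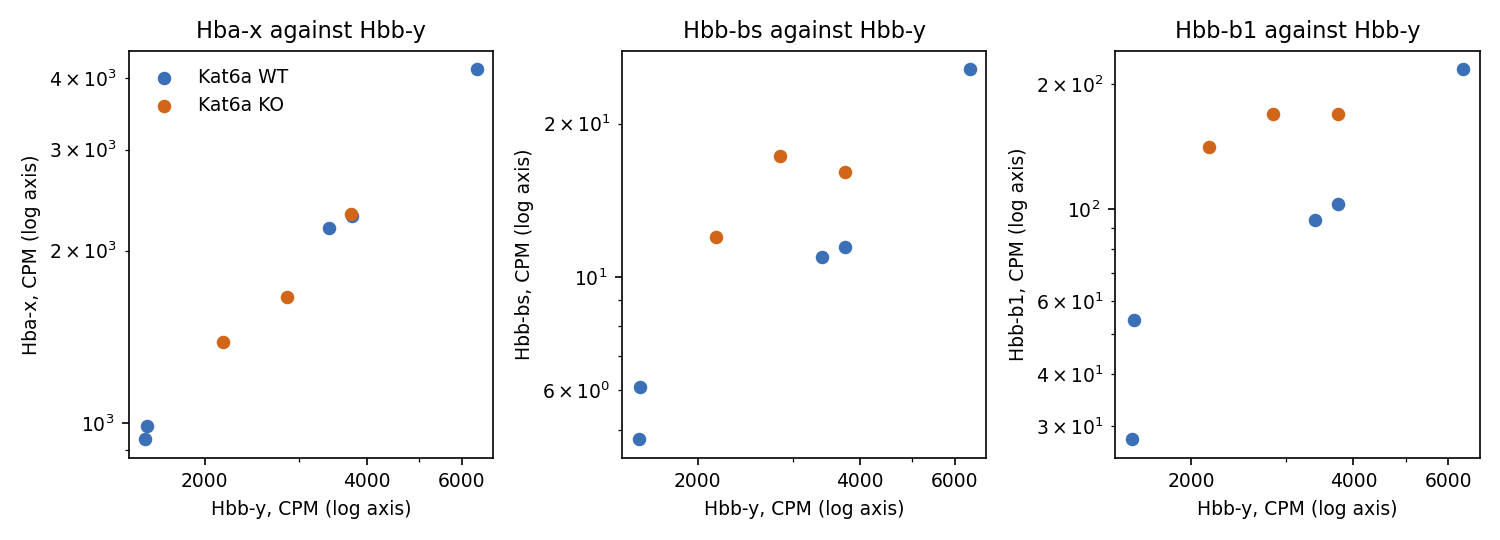
Hba-x, Hbb-bs and Hbb-b1 in CPM against Hbb-y in CPM, both on log axes, with 1 point per heart (WT blue, n = 5; KO orange, n = 3). Hba-x lies along a single line for all 8 hearts, whereas the 3 KO points of Hbb-bs and Hbb-b1 lie above the WT hearts of like Hbb-y level.

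The genes were also tested with the blood content of each heart as a covariate. It was taken as the mean log2 CPM of 18 red cell membrane and cytoskeleton genes, none of them among the 9. Not all 18 moved with the globins. Slc2a1, at 793 to 1025 CPM in WT, was lowest in WT heart 4, Tmod1 stayed at 293 to 330 CPM over all hearts, and Aqp1 was itself called higher in KO. In this alternative fit Hbb-bs had a log2 fold change of 0.61 ± 0.13 (SE, adjusted p = 0.00876, edgeR) and was the 1 of 8 genes called, against 3.39% of all genes tested, 1.85% higher and 1.54% lower. The other 7 lay between -0.11 for Slc4a1 and 0.01 for Hba-a1, and their SE was between 0.05 and 0.09. The Hbb-bs call did not hold without KO heart 1 (0.54, adjusted p = 0.0835), without KO heart 3 (0.48, adjusted p = 0.0923) or with limma voom (0.50, adjusted p = 0.0737). It held with DESeq2 (adjusted p = 0.00126) and without WT hearts 4 and 5, those with Xist RNA (0.76, adjusted p = 0.0270). It also held with 7 of the 18 genes as the covariate, a choice made after seeing the data (0.66, adjusted p = 0.00395, edgeR). Without WT heart 2, Hbb-bh1 was called as well, at -0.17 (adjusted p = 0.0315). Hbb-b1 had a log2 fold change of 1.02 ± 0.24 (SE) with the covariate, which edgeR did not call (adjusted p = 0.124) and which DESeq2 (adjusted p = 0.00194) and limma voom (adjusted p = 0.00110) did.

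Markers of other blood and liver cells were read beside the Hbb-bs difference. Of 13 tested macrophage and leukocyte markers, 7 rose in KO and 0 fell, where 1.44% of all genes tested rose and 1.23% fell. The summed level of these markers was 18.5 to 39.7 CPM in WT and 50.8 to 64.3 CPM in KO. Examples are the macrophage receptor gene Adgre1, with a log2 fold change of 2.57 ± 0.40 (SE, adjusted p = 0.000805, edgeR), and Laptm5, a lysosomal protein gene of blood cells, with 0.87 ± 0.14 (SE, adjusted p = 0.00116, edgeR). The complement genes C1qa, at 2.48 (adjusted p = 0.00602, edgeR), and C1qb, at 1.81 (adjusted p = 0.00178, edgeR), also rose. Of 8 blood progenitor markers, Gata2, a transcription factor of progenitors and endothelium, fell by 0.44 on the log2 scale (adjusted p = 0.00378, edgeR) and 0 rose. Of 5 tested hepatoblast genes 0 passed. Afp, a fetal liver and yolk sac protein, was at 0 to 0.565 CPM in WT and at 1.04, 0.660 and 12.0 CPM in KO hearts 1 to 3. Alb was at 0 in all 5 WT hearts and in KO heart 1, and at 0.203 CPM and 1.21 CPM in KO hearts 2 and 3. Dlk1, a surface protein gene on the hepatoblast list, stood at 72.9 to 117 CPM in WT and 51.6 to 63.9 CPM in KO. It was far above Afp and Alb in every heart, and which cells it came from was not tested. Of 12 platelet and megakaryocyte markers 0 passed on genotype alone, with a median log2 fold change of -0.09. In the fit with the blood covariate 1 of the 12 rose, where 1.85% of all genes tested rose. It was Itga2b, the platelet integrin gene, with 0.36 ± 0.10 (SE, adjusted p = 0.0420, edgeR). Plek, a platelet signalling gene, stood at 13.6 to 32.3 CPM in WT and 16.5 to 23.0 CPM in KO. The part of these cell types in the Hbb-bs difference was not tested.

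Genes that work beside the globins in red cells were read in 6 further lists of 95 genes, of which 89 had a row and 83 were tested. Of the 83, 1 rose, 1 fell and 81 did not pass, where 1.44% of all genes tested rose and 1.23% fell. Fold changes were below 0 for 64, with a median of -0.10, against 7551 of 15086 and a median of -0.00 for all genes tested. With blood content as a covariate the median of the 83 was -0.06. How far these signs rested on WT heart 4 was not tested. Alas1, the housekeeping counterpart of Alas2, fell by 0.34 ± 0.06 on the log2 scale (SE, adjusted p = 0.00217, edgeR), from 64.3 to 65.8 CPM in WT to 46.8 to 55.3 CPM in KO. The 5 WT hearts, spread about 4-fold in globin RNA, were almost equal in Alas1. The cause of the lower Alas1 level in KO was not tested. Aqp1, a water channel of red cells and of vessel linings, rose by 0.43 ± 0.10 (SE, adjusted p = 0.0147, edgeR), from 15.9 to 21.5 CPM in WT to 23.4 to 26.3 CPM in KO. The Aqp1 call did not hold without KO heart 1 (adjusted p = 0.116) or KO heart 3 (adjusted p = 0.0889). Of 10 endothelial and endocardial markers, 2 rose and 1 fell, with summed levels of 1159 to 1316 CPM in WT and 1197 to 1260 CPM in KO, and their part in the Aqp1 difference was not tested.

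Alas1 was the 1 of 11 haem synthesis genes that passed, where 2.67% of all genes tested did. The list had a median log2 fold change of -0.15. Of 12 iron uptake and transport genes 0 passed (median -0.01), with the transferrin receptor gene Tfrc at 191 to 237 CPM in WT and 230 to 282 CPM in KO, and the iron store gene Fth1 at 390 to 710 CPM and 486 to 588 CPM. Aqp1 was the 1 of 18 membrane and cytoskeleton genes that passed (median -0.10). Of 16 erythroid transcription factors 0 passed (median -0.08). Zfpm1, the cofactor of GATA factors also called FOG1, stood at 156 to 235 CPM in WT and 167 to 182 CPM in KO, and the adaptor gene Ldb1 at 107 to 122 CPM and 109 to 114 CPM. Of 22 genes of the erythropoietin response and red cell function 0 passed (median -0.15), with the peroxiredoxin gene Prdx2 at 367 to 503 CPM in WT and 411 to 454 CPM in KO, and the adducin gene Add1 at 361 to 401 CPM and 367 to 382 CPM. Of 4 other globin loci 0 passed, Hbb-b1 among them with 0.69 ± 0.61 (SE, adjusted p = 0.702, edgeR), and the muscle oxygen store Mb had -0.23 ± 0.17 (SE, adjusted p = 0.634, edgeR).

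With blood content as a covariate, 1 of the 83 rose and 3 fell, where 1.85% of all genes tested rose and 1.54% fell. Of the 83, 18 form the covariate itself, Aqp1 among them. Aqp1 and Alas1 were joined by Car2, a carbonic anhydrase of red cells, with -0.37 ± 0.06 (SE, adjusted p = 0.000383, edgeR), and Cited4, a transcriptional cofactor, with -0.27 ± 0.06 (SE, adjusted p = 0.00891, edgeR). Car2 stood at 57.4, 63.5, 128, 212 and 119 CPM in WT and 63.2, 114 and 70.5 CPM in KO. Its groups overlapped, with WT heart 4 highest, and it passed in the fit with the covariate and not in the fit on genotype alone.

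**Figure D4:**
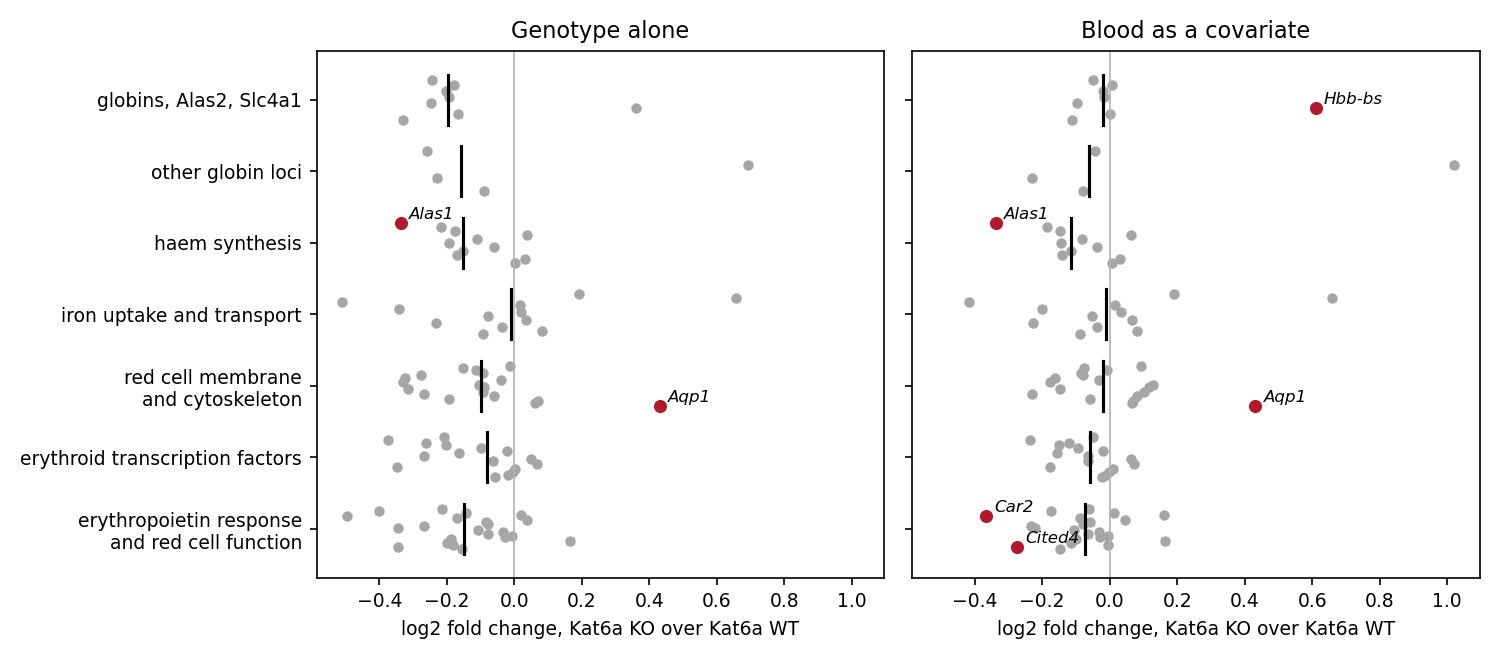
Log2 fold change of KO over WT for each tested gene of the red cell lists, from the fit on genotype alone (left) and with blood content as a covariate (right), with genes past an adjusted p of 0.05 in red and a black line at each list's median. On the left Alas1 and Aqp1 pass; on the right Hbb-bs, Car2 and Cited4 pass as well, and the other globins of the top row lie close to 0, while Hbb-b1 of the second row lies at 1.02 without passing.

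Genes most like the globins over the 8 hearts were sought among 12025 other genes, by the root mean square (RMS) difference between centred log2 CPM profiles, with no test. The nearest were the membrane skeleton gene Add2 (RMS 0.08), the red cell gene Trim10 (0.09), the band 4.2 gene Epb42 (0.09) and the theta globin Hbq1b (0.11). Then came the erythropoietin receptor gene Epor (0.13), the actin-bundling gene Dmtn (0.13), the Rh antigen gene Rhd (0.14), Hsd3b6 (0.14), the ankyrin gene Ank1 (0.14) and the amino acid transporter gene Slc38a5 (0.15). Of these 10, 9 belong to the red cell lists, and Hsd3b6, a steroid dehydrogenase gene, belongs to none. The RMS of the median gene was 0.66. Of the 8 genes themselves, Hba-a2 was nearest to the shared profile (0.05) and Slc4a1 lay at 0.16, while Hbb-bs, at 0.30, was farthest. The profile is the mean of the globins among the 8, so their own nearness to it is partly built in. Alas2 and Slc4a1 are not part of it.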

How the data were processed

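Total RNA of E10.5 hearts was sequenced from stranded TruSeq libraries, per the labels' protocols. Reads were demultiplexed with bcl2fastq and assigned to genes with featureCounts on mm10, per the submitters' processing notes. No source used here gives versions, aligner, annotation or strand setting. The authors deposited raw counts per Entrez ID, with the gene length beside them, and the table of all hearts equals the files of single hearts.

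Symbols and positions came from the GRCm38.p6 RefSeq table (25275 of 27179 IDs matched), promoters from RefSeq and transcripts from GENCODE M21. Tests ran in edgeR 4.0.16 (R 4.3.3), with DESeq2 1.42.0 and limma 3.58.1 as alternatives, permutations ran in R, and intervals came from SciPy 1.17.1 in Python 3.11.15. Genes were filtered with filterByExpr, scaled by trimmed mean of M values and tested with edgeR's robust quasi-likelihood test over all 8 hearts, with Benjamini-Hochberg adjustment over 15086 genes and a threshold of 0.05. SE is the size of the log2 fold change divided by the root of its F statistic. TPM used the deposited lengths. The test was checked on simulated counts of 14951 genes: recovery was 46% at 1.25-fold, 74% at 1.5-fold, 96% at 2-fold and 98% at 4-fold, with 14 false among 171 calls. No pair of libraries agreed within sampling noise (chi-square per degree of freedom 7.90 to 28.8 over 28 pairs).

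The genes and lists were chosen with earlier results of these data known. Named from other lists were up to 4 members past the threshold of smallest p, or the 2 of highest mean level where none passed, and Car2, Cited4 and Alb by later choice. Heart muscle, endothelial, epicardial and immediate early genes are given by counts only. Epicardial and immediate early genes were also read: 5 of 8 epicardial genes fell, where 1.23% of all genes tested fell. Of 15 immediate early and heat shock genes 0 passed. Alternatives were another tool, scaling or filter, a replicate block, a blood covariate, other globin sums and hearts left out.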

Additional observations from a re-analysis of the deposited data

How the results depend on the processing

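Over all genes, the count called was 403 with 8 hearts, 194 to 496 when 1 heart was left out (lowest without KO heart 1, and 263 without KO heart 3) and 186 with a replicate block. The replicate numbers gave no sign of pairing: deviations of same-numbered hearts correlated at 0.07, -0.12 and -0.05. Those of differently numbered hearts correlated at -0.08 to 0.08. Such correlations over all genes cannot exclude pairing. With the block, on replicates 1 to 3, 1 of the 8 red cell genes was called, Hbb-bs at 1.08 (adjusted p = 0.00569, edgeR). Leaving out WT hearts 4 and 5, those with Xist RNA, keeps the same hearts as the block, so these settings are not separate checks. On these hearts without the block, Hbb-bs was not called, at 1.00 (adjusted p = 0.353, edgeR). The other 7 were not called there; they turned positive with the block and without the hearts holding Xist RNA, respectively: Hba-x 0.44 and 0.34, Hba-a1 0.45 and 0.34, Hba-a2 0.42 and 0.32, Hbb-y 0.45 and 0.35, Hbb-bh1 0.36 and 0.26, Alas2 0.42 and 0.34, Slc4a1 0.42 and 0.30. Leaving out 1 heart gave -0.48 to 0.15 for Hba-x, -0.36 to 0.20 for Hba-a1, -0.38 to 0.17 for Hba-a2, -0.42 to 0.18 for Hbb-y, -0.49 to 0.086 for Hbb-bh1, -0.38 to 0.21 for Alas2 and -0.62 to 0.10 for Slc4a1, with the positive values without WT heart 4.

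The fit with blood content as a covariate was listed as an alternative, and reading its calls as a result, with its own alternatives, was chosen after seeing the data. The fit on genotype alone called 1 to 3 of the other red cell genes when 1 heart was left out. With the covariate, 1 of the 8 genes and 4 of 83 other red cell genes were called, against 3.39% of all genes tested. In the fit with the covariate, the count of the 8 was 0 with limma voom and 0 to 2 with 1 heart left out. Hba-a1 (0.0080) and Alas2 (0.00141) turned positive in it. Values near 0 changed sign within it: Hba-x 0.00102 with 7 membrane genes as covariate and 0.010 without the Xist hearts, Hba-a1 -0.014 with voom, Hba-a2 0.010, 0.027 and 0.019 and Hbb-y 0.017, 0.033 and 0.0095 with the covariate of Hba-x and Hbb-y, the 7 genes and no Xist hearts, and Alas2 -0.00027 with DESeq2 and -0.011 with voom. With 1 heart left out they were -0.085 to 0.096 for Hba-a1, -0.081 to 0.056 for Hba-a2, -0.069 to 0.029 for Hbb-y and -0.065 to 0.044 for Alas2.

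Embryonic over adult beta globin stayed below 0 in all alternatives run, from -1.05 with Hbb-b1 alone to -0.53 without KO heart 3. With the block its exact p of 0.25, and without the Xist hearts that of 0.1, is the smallest possible. Embryonic over adult alpha globin was 0.00233, and Alas2 over globins -0.00157, both with the block and without the Xist hearts, which use the same hearts. Alpha-like over beta-like globins changed sign around 0: -0.00121 with Hba-a1 alone, -0.00692 with Hba-a2 alone, -0.026 with Hbb-bs plus Hbb-b1, -0.024 with Hbb-b1 alone and -0.038 to 0.023 with 1 heart left out. The causes were not tested. At 127 to 588 counts per heart, depth limits Hbb-bs more than the 5 other globins of the 8 genes, and Hbq1b, at 28 to 119 counts, more than Hbb-bs.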
